A study of Mus musculus with 2 samples.

Results

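The 8 genes described here are the tumour-suppressor locus Cdkn2a, its neighbours Cdkn2b and Mtap, and the other inhibitors of cyclin-dependent kinases: Cdkn2c and Cdkn2d of the same INK4 family, and Cdkn1a, Cdkn1b and Cdkn1c of the Cip/Kip family. They were chosen by name, as every probe set whose only annotated gene was among the 8. This gave 13 probe sets of 45037 on the array, and 8 of 18193 genes. Thymocytes of C57BL/6J mice were depleted of cells bearing lineage markers, and RNA from the remaining cells was hybridised to 1 Affymetrix array titled TKO and 1 titled DKO. The series design text gives the TKO genotype as LckCre(+), and the DKO genotype as LckCre(-), on a background that both share: Cdkn2a-/-, Ring1A-/- and Ring1Bfl/fl. The genotype field of the samples reads otherwise, with Ring1A, Ring1B and Cdkn2a lost in TKO and Ring1A and Ring1B lost in DKO. LckCre is a recombinase active in T-lineage cells, so floxed Ring1B would be removed in those cells alone. The labels give no age, sex or number of animals behind either RNA. Because each genotype had 1 array, no error between animals could be set, there is no test, and the words higher and lower compare these 2 arrays only.

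Cyclin-dependent kinases drive the cell cycle, and the 7 inhibitors restrain them in different ways. INK4 proteins bind Cdk4 and Cdk6 and keep them from the D-type cyclins, whereas Cip/Kip proteins bind assembled cyclin and kinase complexes, above all those of Cdk2. Cdkn2a is unusual in coding for a pair of unrelated proteins from separate first exons: Ink4a, a kinase inhibitor, and Arf, which restrains the ubiquitin ligase Mdm2 and so stabilises p53. Polycomb repressive complex 1, of which Ring1 (Ring1A) and Rnf2 (Ring1B) are the ubiquitin ligase subunits, is a known repressor of the Cdkn2a and Cdkn2b genes, and Polycomb complexes are found mostly at CpG-rich gene starts.

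The sequences before the starts of Cdkn2a and Cdkn2b are shown because Polycomb binding is tied to their CpG content. They are the 250 bases before each RefSeq start in build GRCm38.p6, 5′ to 3′ on the strand of the gene, with CpG dinucleotides in capitals. The outer start of Cdkn2a, the one of Arf, is followed 12427 bases downstream by the inner start, the one of Ink4a, and Cdkn2b lies upstream of the Arf start on the same strand.
Cdkn2a outer start (chr4:89294620-89294869, minus strand): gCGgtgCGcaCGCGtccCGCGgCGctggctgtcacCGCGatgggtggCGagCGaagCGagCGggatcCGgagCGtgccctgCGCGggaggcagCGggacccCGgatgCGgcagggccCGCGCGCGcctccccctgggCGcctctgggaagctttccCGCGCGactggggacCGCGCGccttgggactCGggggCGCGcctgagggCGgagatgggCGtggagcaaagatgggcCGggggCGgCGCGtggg
Cdkn2a inner start (chr4:89282193-89282442, minus strand): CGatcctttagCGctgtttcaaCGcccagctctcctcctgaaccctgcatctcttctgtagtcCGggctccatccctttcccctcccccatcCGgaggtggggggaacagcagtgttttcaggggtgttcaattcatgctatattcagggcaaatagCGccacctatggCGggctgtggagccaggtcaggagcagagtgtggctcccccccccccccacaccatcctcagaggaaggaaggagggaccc
Cdkn2b start (chr4:89311033-89311282, minus strand): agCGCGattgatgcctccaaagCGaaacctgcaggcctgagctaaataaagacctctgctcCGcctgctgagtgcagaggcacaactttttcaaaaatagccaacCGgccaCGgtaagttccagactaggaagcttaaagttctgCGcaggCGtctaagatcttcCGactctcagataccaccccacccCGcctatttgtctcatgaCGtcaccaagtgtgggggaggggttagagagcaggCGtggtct
The outer start of Cdkn2a had 40 CpGs and 78.4% G and C, and 1.31% of all 32851 RefSeq windows of this length had as many CpGs or more. The inner start had 7 CpGs (46.3% of windows had as many or more) and Cdkn2b had 12 (33.5%), against a median of 6 over all windows. Bases after the starts were not counted, so these counts do not describe the CpG content there. The window before the outer start also held the E2F sequence TTTCCCGC, searched on both strands and found in 0.895% of windows, and the GC box GGGCGG at 2 places, a motif of 32.7% of windows. These 2 motifs did not overlap there. Neither was in the other 2 windows shown. A match is a description of the letters only.

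The window before the outer start of Cdkn1a is shown because Cdkn1a is the classical p53 target of this family and p53 stands downstream of Arf. Capitals mark the p53 full site, searched without a spacer and with up to 1 mismatch. It lay 51 to 32 bases before the start, and 25 of the 32851 windows (0.0761%) held such a site. The window before the inner start of Cdkn1a held none.
Cdkn1a outer start (chr17:29090729-29090978, plus strand): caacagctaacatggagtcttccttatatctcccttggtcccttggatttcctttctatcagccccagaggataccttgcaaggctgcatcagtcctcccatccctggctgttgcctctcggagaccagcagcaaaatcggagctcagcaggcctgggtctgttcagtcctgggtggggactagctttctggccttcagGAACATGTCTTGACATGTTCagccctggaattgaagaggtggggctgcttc
Among the 10 windows of 7 of the 8 genes, CpG counts ran from 2 before this start to 40 before the Arf start. Cdkn2c had 29 and 6 CpGs before its outer and inner start, Cdkn1b had 28, the inner start of Cdkn1a had 19, Cdkn2d had 16 and Mtap had 11. The TATA box TATAAA, on either strand, was in none of these 10 windows and in 12.4% of all windows.

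**Figure D1:**
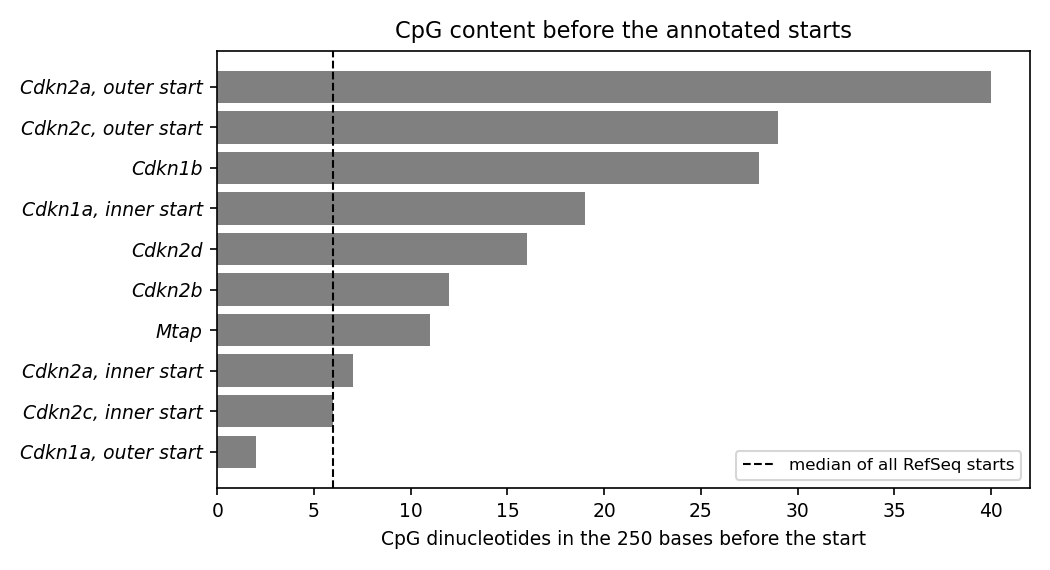
CpG dinucleotides in the 250 bases before each RefSeq start of 7 genes (horizontal axis, count), 1 bar per start, with a dashed line at the median of all RefSeq starts, 6. The Arf start of Cdkn2a has the most, 40, and the Cdkn2b start has 12.

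The mean signal, with 2% trimmed at each end, was 497 on both arrays. The values are MAS5 signals, intensities on a linear scale, and a signal under the median of its array (71.8 on the TKO array and 68.8 on the DKO array, called the floor) was counted as not measured. Of the targeted genes, Cdkn2a had a signal of 18.5 on the TKO array and 679 on the DKO array, the direction that the samples' genotype field gives and the design text does not. Ring1 and Rnf2 did not differ in this way. Ring1 had a signal of 147 on the TKO array and 133 on the DKO array, although both texts have Ring1A lost in both genotypes. The brightest probe set of Rnf2 had 4384 on the TKO array and 4149 on the DKO array. Another had 2002 on the TKO array and 1771 on the DKO array, and the rest were below the floor on both. By the design text only TKO carries the recombinase that would remove Ring1B. The sources do not place these probe sets inside or outside the deleted parts, and outside them a signal checks nothing. TKO and DKO are therefore used as the arrays' labels only. The arrays differed in sex-linked genes, with Xist at 16502 on the TKO array and 124 on the DKO array, and Eif2s3y, Kdm5d and Uty measured on the DKO array alone. Sex and genotype label cannot be told apart here. Markers of early thymocytes were present on both arrays, among them the pre-T-cell receptor chain Ptcra (2564 on the TKO array and 4028 on the DKO array). Of 8 matched markers of later thymocytes 7 were measured too, among them Cd8a (635 on the TKO array and 616 on the DKO array), and Cd4 was below the floor on both. The summed signal of 16 matched early thymocyte markers was 125222 on the TKO array and 160257 on the DKO array, with 0 higher, 1 (Il2ra) lower by 2-fold and a median log2 ratio of -0.31; Il2ra was under 2-fold with the lowess trend removed (-0.98) and as the mean over probe sets (-0.95). The summed signal of 17 B lineage markers was 67474 on the TKO array and 29233 on the DKO array, with 15 of 17 at least 2-fold higher. In bulk RNA, fewer cells of a type and less RNA per cell cannot be told apart.

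Of the 8 genes, Cdkn2a was lower and its neighbour Cdkn2b higher on the TKO array, each past 2-fold, and the other 6 genes differed by at most 1.23-fold. A gene is represented by its brightest probe set, and is counted where its signals differ by 2-fold or more. By this rule 1 of 8 genes was higher and 1 of 8 lower. Over all 11280 genes measured on at least 1 array, 3.58% were higher and 0.532% lower. Of the 13 probe sets 1 was higher and 1 lower, beside 2.91% and 0.578% of all 23894 measured probe sets. Counts of 1 among 8 are too small to be read as a share. The median log2 ratio, TKO minus DKO, was 0.01 over the 8 genes and -0.03 over all measured genes.

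**Figure D2:**
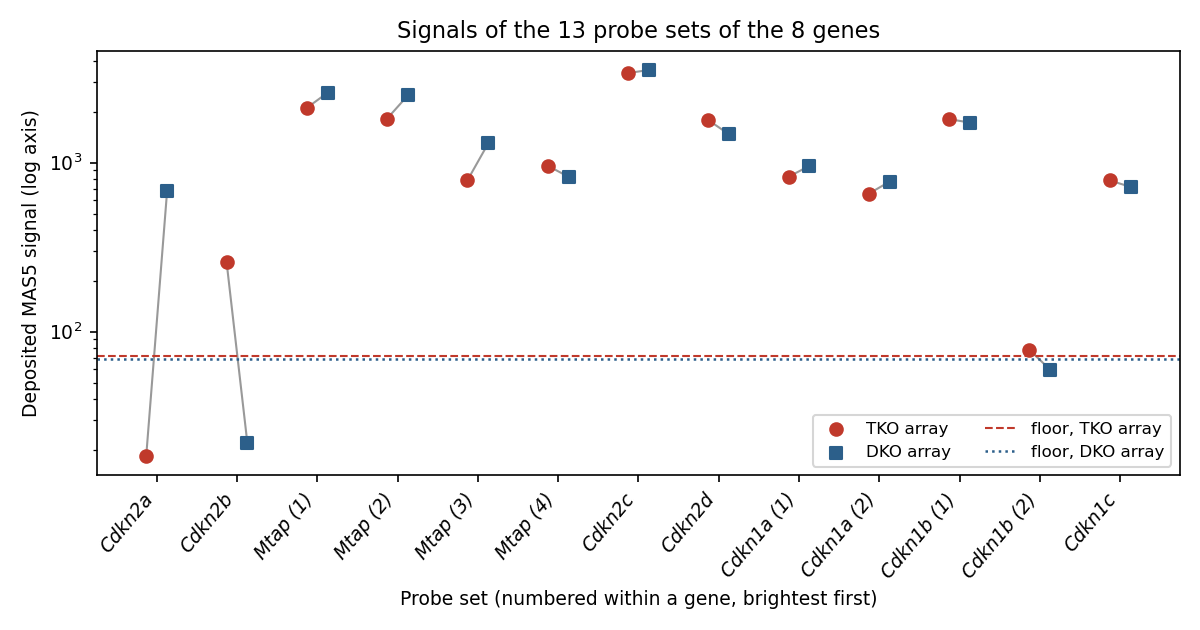
Deposited signals (vertical log axis, MAS5 units) of the 13 probe sets on the TKO array (red circles) and the DKO array (blue squares), 1 array each, with dashed and dotted lines at the floors of 71.8 and 68.8. Cdkn2a and Cdkn2b cross the floors in opposite directions; the 2 points of every other probe set lie close together.

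Cdkn2a had a signal of 18.5 on the TKO array, below the floor, and 679 on the DKO array. It was therefore at least 9.47-fold lower on the TKO array, a log2 ratio of -3.24 against the floor, and -5.20 between the deposited signals. With ratios taken against the floor, some of them bounds, only Eif2s3y, a Y-linked gene, had a lower one among the 11280 genes. Of the 2150 genes whose brighter signal lay between 600 and 1200, as for Cdkn2a, 10 (0.465%) were at least 2-fold lower. Of the 441 genes measured on the DKO array alone, 13 (2.95%) were lower by that much. The gene had 1 probe set, so no second reading exists. The annotation used here does not say whether its probes read Ink4a, Arf or both. The 2 signals run the way the samples' genotype field has it, with Cdkn2a lost in TKO and not in DKO. The series design has TKO and DKO both as Cdkn2a-/-, and so gives no difference between them at this gene. An engineered deletion of Cdkn2a in the TKO cells and a change in its expression cannot be told apart here. Whether the probe set reads a part of the gene that the null allele keeps was not tested. With the floor raised to the 75th percentile of each array (431 on the TKO array and 417 on the DKO array) the log2 ratio was -0.66, under 2-fold.

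The 5 genes with the log2 ratio closest to that of Cdkn2a were Kdm5d (-3.18), Gm19696 (-2.73), Uty (-2.26), B4galnt2 (-2.22) and Eif2s3y (-4.58). With 2 arrays this likeness rests on 1 ratio per gene. Like Cdkn2a, Kdm5d, Uty, B4galnt2 and Eif2s3y were below the floor on the TKO array. Their ratios are bounds against the floor, so their closeness to Cdkn2a reflects the DKO signal alone. Kdm5d, Uty and Eif2s3y lie on the Y chromosome, so 3 of the 5 are genes whose signals follow sex. Gm19696 was above the floor on both arrays, at 171 on the TKO array and 1134 on the DKO array. B4galnt2, a glycosyltransferase gene, had 60.0 on the TKO array, below the floor, and 334 on the DKO array.

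Cdkn2b, which encodes the INK4 protein p15, moved the other way from Cdkn2a. Its signal was 259.8 on the TKO array and 21.9, below the floor, on the DKO array. It was at least 3.77-fold higher on the TKO array, a log2 ratio of 1.92 against the floor and 3.57 between the deposited signals. It ranked 86 from the highest of 11280 ratios taken against the floor, some of them, like its own, bounds. Its brighter signal lay between 150 and 300, as did that of 1468 genes in all, of which 118 (8.04%) passed 2-fold in the same direction. Of the 523 genes measured on the TKO array alone, 17% were higher by that much. The gene had 1 probe set, and with the floor at the 75th percentile it was below the floor on both arrays and had no ratio.

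Mtap encodes methylthioadenosine phosphorylase, an enzyme of methionine salvage, and is often lost together with CDKN2A in human tumours. Its 4 probe sets were all well above the floor on both arrays and none differed by 2-fold. The brightest had 2105 on the TKO array and 2592 on the DKO array (log2 ratio -0.30). The next had 1819.5 on the TKO array and 2500.1 on the DKO array (log2 ratio -0.46). The third had 785 on the TKO array and 1299 on the DKO array (-0.73). Unlike these 3 probe sets, the fourth had the higher signal on the TKO array, 958, against 824 on the DKO array (0.22). Their log2 ratios averaged -0.32 ± 0.40 (SD over 4 probe sets of the same 2 hybridisations), with a range of 0.95. Genes with exactly 4 probe sets above the floor on both arrays had a median range of 0.48, and 9.24% of these 476 genes had a range at least as wide as that of Mtap. The largest Mtap difference was 1.66-fold.

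Among the genes along chromosome 4 that have a probe set, Cdkn2a and Cdkn2b were the only ones past 2-fold out to 10 genes on either side. This window was drawn after the values were seen. Of its 20 other genes, 8 were measured on at least 1 array, and their log2 ratios ran from -0.36 for Klhl9 to 0.53 for Caap1, with a median of -0.08. The other 12, among them Dmrta1, the next gene beyond Cdkn2b with a probe set, and 4 interferon alpha genes, were below the floor on both arrays. Dmrta1 had 19.7 on the TKO array and 45.1 on the DKO array. A listed set of 10 genes of the region held 6 measured genes, with 1 higher (Cdkn2b), 1 lower (Cdkn2a), 4 neither and a median of -0.33. Its members besides those already named were Focad (-0.58), Mllt3 (-0.09), and Elavl2 and Hacd4, both below the floor on both arrays, and Ifne is not analysed here.

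**Figure D3:**
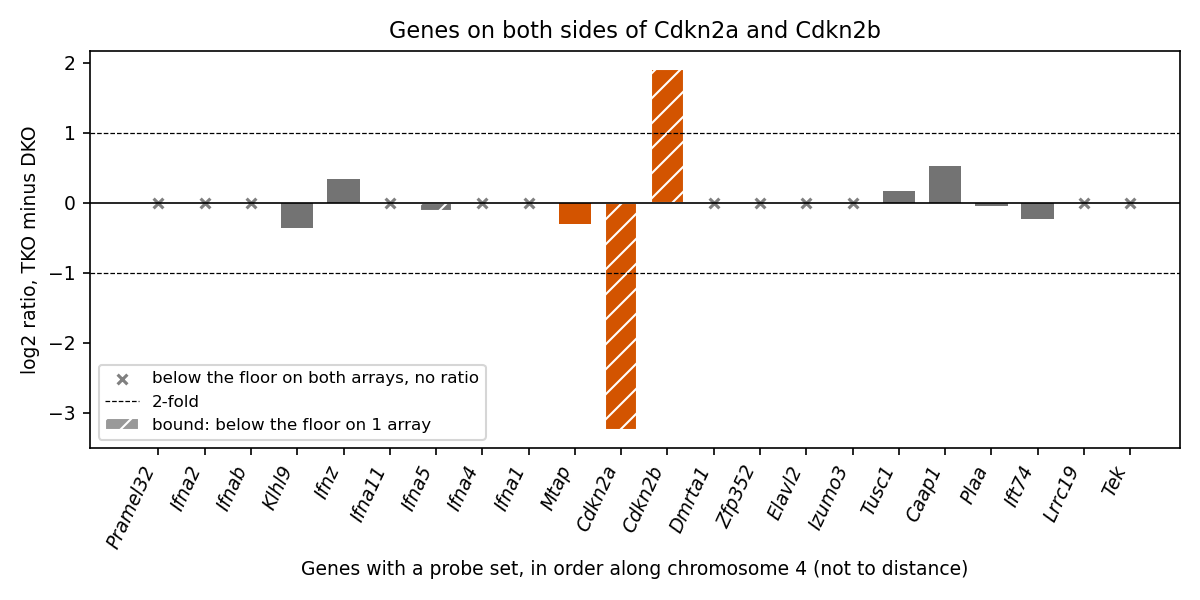
log2 ratio, TKO minus DKO (vertical axis), of genes with a probe set in their order along chromosome 4; distances are not to scale, hatched bars are bounds against the floor and crosses mark genes without a ratio. Cdkn2a at -3.24 and Cdkn2b at 1.92 stand side by side, and the 8 other measured genes lie between -0.36 and 0.53.

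The other INK4 genes did not differ by 2-fold. Cdkn2c encodes p18, which restrains proliferation of lymphocytes and their precursors. It had 3386 on the TKO array and 3526 on the DKO array, a log2 ratio of -0.06, and 84.6% of measured genes had a larger absolute ratio. Cdkn2d encodes p19 of the INK4 family, a protein distinct from p19Arf. It had 1785 on the TKO array and 1468 on the DKO array, a log2 ratio of 0.28 (1.22-fold higher). The size of that ratio was exceeded by 35.8% of measured genes. Each had 1 probe set.

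The Cip/Kip genes differed by at most 1.16-fold in their brightest probe sets. Cdkn1a encodes p21, the main effector of the p53-driven cell-cycle arrest. Its brighter probe set had 824 on the TKO array and 957 on the DKO array (log2 ratio -0.22). Its other probe set had 655 on the TKO array and 772 on the DKO array (log2 ratio -0.24), so the 2 readings of this gene lay close to each other. Cdkn1b encodes p27, an inhibitor of Cdk2 that holds lymphocytes in quiescence. Its brighter probe set had 1808 on the TKO array and 1723 on the DKO array (log2 ratio 0.07). The other was near the floor, above it at 78.2 on the TKO array and below it at 59.5 on the DKO array, and its bound was 0.18. Cdkn1c encodes p57, an imprinted gene expressed from the maternal allele. It had 785 on the TKO array and 718 on the DKO array, a log2 ratio of 0.13 from 1 probe set.

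**Figure D4:**
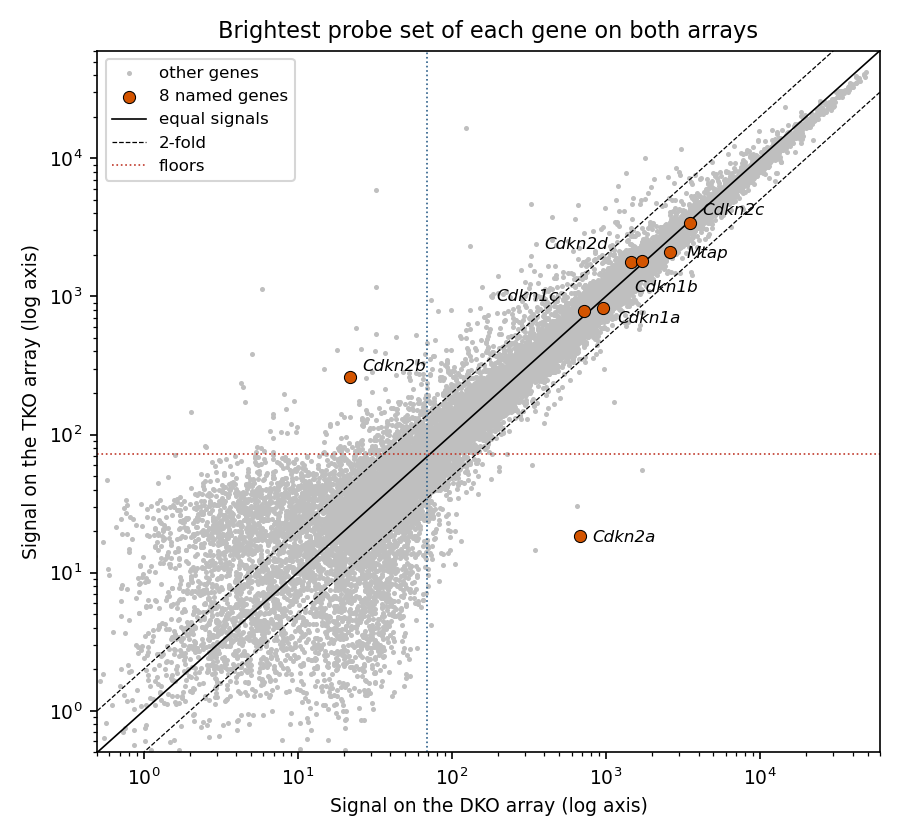
Signal of each gene's brightest probe set on the DKO array (horizontal log axis) and the TKO array (vertical log axis), with the 8 genes in orange, lines of equal and 2-fold different signal, and dotted lines at the floors. Cdkn2b (259.8 on the TKO array, 21.9 on the DKO array) lies far above the diagonal and Cdkn2a (18.5 on the TKO array, 679 on the DKO array) far below it; the other 6 lie along it.

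The log2 ratios of separate probe sets of a gene scattered with a robust SD of 0.21 (SD 0.26). This was taken from the 2 brightest probe sets of each of 4794 genes with at least 2 above the floor on both arrays. The ratios of Cdkn2c, Cdkn1b and Cdkn1c were smaller in size than both SDs, and that of Cdkn1a (-0.22) lay between them. Those of Cdkn2d (0.28) and Mtap (-0.30) were somewhat larger. Cdkn2a was below the floor on the TKO array and Cdkn2b on the DKO array. Their ratios are bounds, so this spread, from probe sets above the floor on both arrays, does not gauge them. This spread comes from the same hybridisations and holds no error between animals or RNA preparations.

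Genes of the pathways in which the inhibitors act were taken from 9 lists. With the 8 genes left out, 141 were measured, of which 2 were at least 2-fold higher (1.42%, beside 3.58% of all genes) and 1 was lower (0.709%, beside 0.532%). Counts this small are not read as a share. The kinases that INK4 proteins bind were Cdk6, with 7204 on the TKO array and 11404 on the DKO array (log2 ratio -0.66), and Cdk4, with 4701 on the TKO array and 6283 on the DKO array (-0.42). Among the D-type cyclins Ccnd1 had 0.35, Ccnd2 -0.27 and Ccnd3 0.13 as log2 ratios, and the E-type cyclin Ccne2 had 0.37. All 14 measured cyclins and kinases were neither higher nor lower by 2-fold, with a median of -0.09. The 13 pocket proteins and E2F factors, which act below these kinases, were likewise all neither, with a median of -0.05. In that list the largest ratios were those of E2f5 (0.77), Rbl2 (0.54), Tfdp2 (0.41) and E2f3 (-0.33), and Rb1, the retinoblastoma protein gene, had -0.05.

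On the Arf side of Cdkn2a, Mdm2 had 1021 on the TKO array and 833 on the DKO array (log2 ratio 0.29). Of 9 measured genes of the Arf, Mdm2 and p53 list 1 was higher and 0 were lower, and the median was -0.01. The higher one was Ctbp2, a transcriptional corepressor whose protein Arf binds, with 1712 on the TKO array and 794 on the DKO array (2.16-fold). The log2 ratio of its other probe set was 0.88, and the mean over both, 0.99, was under 2-fold. The others among its 4 largest ratios were Huwe1 (-0.44), Zbtb7a (0.32) and Mdm2. Of 20 measured p53 target genes 0 were higher and 1 was lower, and the median was -0.18. The lower one was the cell-death gene Bbc3 (Puma), with 147 on the TKO array and 347 on the DKO array (2.36-fold lower), both under the floor at the 75th percentile, where it had no ratio. Sesn1 (0.87), Gtse1 (-0.86) and Zmat3 (-0.76) followed, so ratios on both sides of 0 stood among the largest. Cdkn1a, also on this list, had -0.22.

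The proliferation list had no gene past 2-fold among 25 and a median of -0.21, beside -0.03 over all measured genes. Of its ratios 22 were below 0, and the share below 0 over all genes was not counted. Over all settings its median ran from -0.28 to -0.12, the latter with the lowess trend removed. The largest ratios of the list were those of Top2a (-0.40), Mcm6 (-0.38), Aurka (-0.36) and Cdt1 (-0.32). The proliferation marker Mki67 had 11561 on the TKO array and 13988 on the DKO array (-0.28). Genes for the turnover of p27 and p21, which includes the ubiquitin ligase subunit Skp2 (-0.20), had 0 of 13 past 2-fold and a median of -0.19, with Rbx1 (-0.33), Dtl (-0.32), Skp1 (-0.30) and Cul4b (-0.20) the largest. The 22 measured Polycomb subunits had 0 past 2-fold and a median of -0.03. Cbx8, a chromodomain subunit of Polycomb complex 1, came closest with 291 on the TKO array and 148 on the DKO array (0.98), and Bmi1, whose protein is known to repress Cdkn2a, had 6619 on the TKO array and 4793 on the DKO array (0.47). Phc3 (-0.35) and Pcgf6 (-0.34) followed.

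FoxO, TGF-beta and other upstream genes, among whose products are known regulators of Cdkn1b, Cdkn1a and Cdkn2b, had 0 of 22 past 2-fold and a median of 0.06. The TGF-beta receptor genes Tgfbr1 (4877 on the TKO array and 3061 on the DKO array) and Tgfbr2 (3055 on the TKO array and 1986 on the DKO array) had 0.67 and 0.62 as log2 ratios, and their signal mediator Smad3 had -0.51. The largest of the list were Id2 (0.94), Jund (0.76), Tgfbr1 and Tgfbr2. Of 6 measured genes of the imprinted region around Cdkn1c, 1 was higher and 0 were lower, and the median was 0.03. The higher one was Igf2, a growth factor gene expressed from the paternal allele, with 873 on the TKO array and 298 on the DKO array (2.93-fold). Its other probe set was below the floor on both arrays, so no second reading exists. The mean over both, 0.81, was under 2-fold only because that probe set was counted at the ratio of the floors, 0.06. Cd81 (0.20), Nap1l4 (-0.20) and Tssc4 (-0.18) followed.

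**Figure D5:**
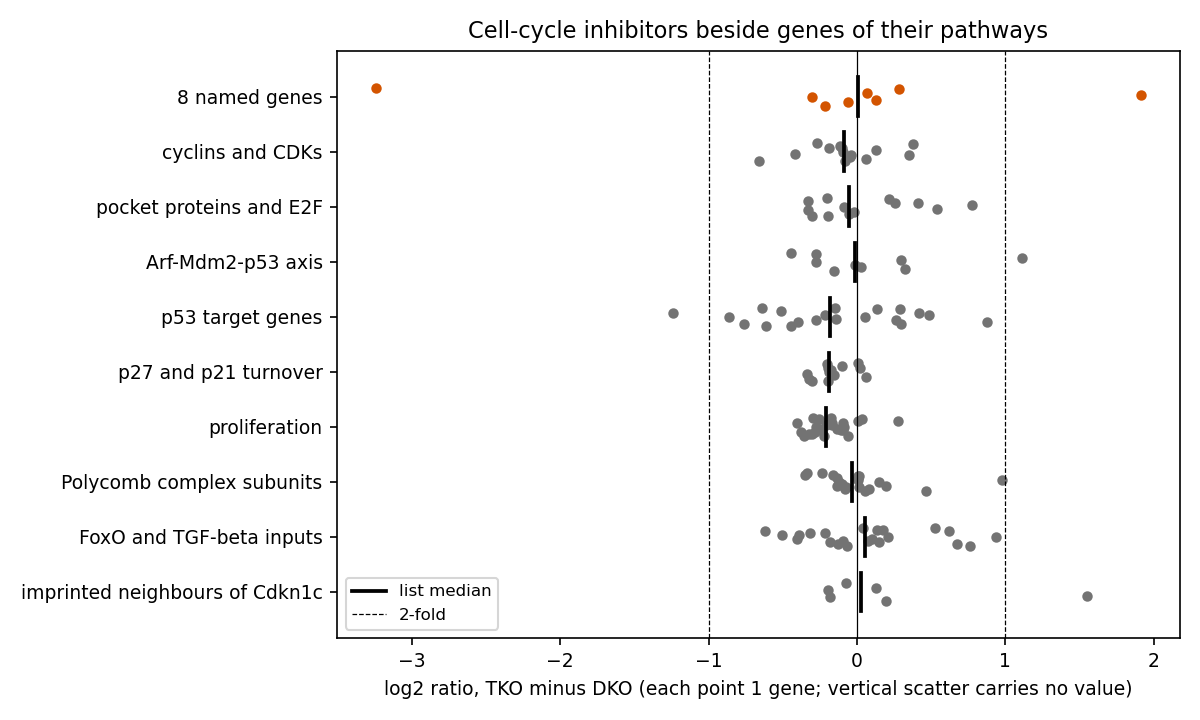
log2 ratio, TKO minus DKO (horizontal axis), of the measured genes of 10 lists, 1 point per gene, with the list median as a bar and dashed lines at 2-fold. Outside the 8 genes, whose outer points are Cdkn2a at -3.24 and Cdkn2b at 1.92, the genes past 2-fold are Ctbp2, Bbc3 and Igf2. As the mean over its probe sets Ctbp2 is under 2-fold, and so is Igf2, whose other probe set is below the floor on both arrays.

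Markers of other cells the depleted fraction could hold also differed between the arrays. Dendritic markers had 5 of 7 measured genes higher, 0 lower and a median of 1.65. The summed signal of all 9 matched dendritic markers was 27607 on the TKO array and 7195 on the DKO array. The 5 higher genes were all genes of class II presentation, which B cells share, and no other marker of this list was past 2-fold. As the mean over probe sets 4 of the 7 were higher. B lineage markers had a median of 1.58, with Pax5 at 299 on the TKO array and 74.1 on the DKO array, barely above the floor. Myeloid markers had 2 of 10 measured genes higher (Csf1r, Lyz2) and 2 lower (Ngp, S100a9). The summed signal of all 13 matched myeloid markers was 5131 on the TKO array and 4436 on the DKO array. Markers of later thymocytes had 1 of 7 higher (Cd69, 2.01-fold) and a median of 0.04, but Cd69 did not keep to 2-fold: its log2 ratio was 0.95 on quantile-normalized signals and 0.15 with the 75th-percentile floor. Thymic stroma markers had 1 of 6 lower (Pdgfrb), and 1 of 4 matched erythroid markers was measured. The part of these cells in the Cdkn2a and Cdkn2b differences was not tested.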

How the data were processed

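Gene expression was measured on 2 one-colour Affymetrix arrays, 1 per genotype label. The deposited values are array intensities on a linear scale made with MAS5, per the submitters' processing notes; its version and settings are not given in the sources used here. That method removes local background and applies a global scaling factor per array. Per the labels' protocols, cRNA was made from total RNA of lineage-negative thymocytes. Detection calls and scan dates were not used here, and with 1 array per label any batch cannot be told apart from genotype. The number of arrays limits the precision.

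Probe sets were named from the platform annotation and updated by Entrez ID to RefSeq symbols (99.4% of 34945 probe sets with 1 gene); 932 carried several genes and 9160 were unnamed. Signals below the array median were raised to it, a probe set below it on both arrays got no ratio, and 1 below it on 1 array gives a bound. Each gene took the probe set brightest in mean log2 signal. The log2 ratio is TKO minus DKO. Calculations used Python 3.11.15, numpy 2.4.6, pandas 2.3.3 and statsmodels 0.14.6, plots matplotlib 3.10.9, and the steps were tested on simulated data. The members and the 18 other gene lists were chosen with earlier results of these data known. Named genes are all members, the 5 genes closest in ratio to Cdkn2a, the targeted and sex-linked genes, and from other lists genes past 2-fold and up to 4 with the largest ratios; Cdk4, Rb1, Mki67, Skp2, Smad3, Pax5, Ptcra, Cd4, Cd8a, the D-type cyclins and the chromosome 4 neighbours were added after their values were seen, and marker lists are given mainly as counts. Listed genes without a probe set used are not analysed here. Alternatives were 3 scalings, 3 floors, the mean over probe sets, and omission of _x_at and _s_at probe sets. In that mean, a probe set below the floor on both arrays counted at the ratio of the floors, 0.06, and draws large ratios towards 0. Sequences are from RefSeq, build GRCm38.p6.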

Additional observations from a re-analysis of the deposited data

How the results depend on the processing

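The ratios of Cdkn2a and Cdkn2b kept their direction wherever they had a value, and their size depended on the floor. With a floor at the 25th percentile the log2 ratios were -5.00 for Cdkn2a and 3.57 for Cdkn2b, and with no floor -5.20 and 3.57. With the 75th percentile Cdkn2a was at -0.66 and Cdkn2b had no ratio, so that the members past 2-fold were 0 higher and 0 lower. Over the 3 scalings Cdkn2a ran from -3.28 to -3.21 and Cdkn2b from 1.86 to 1.95. Each of the 2 genes has 1 probe set, of neither omitted type. The mean over probe sets and the omission therefore could not change their ratios. The other 6 members stayed between -0.32 and 0.32 over all settings. All genes past 2-fold numbered 404 higher and 60 lower as reported. They were 962 and 434 with the lower floor, 147 and 14 with the higher one and 2197 and 1497 with none. As the mean over probe sets 35 were lower, with probe sets below the floor on both arrays counted at the floors. Medians of lists with dim genes moved too: the Arf, Mdm2 and p53 list to 0.29 with the lower floor and 0.27 with none, myeloid markers (0.19) to 0.48 and 0.44, and with the higher floor dendritic markers to 2.03 and thymic stroma markers (0.34) to -0.80, over 4 and 2 genes. Fewer or more genes are measured under each floor. Of the list genes named as past 2-fold, Ctbp2 (0.99) and Igf2 (0.81) were under it as the mean over probe sets. The Igf2 mean includes a probe set below the floor on both arrays, counted at the floors. Il2ra was under 2-fold as the mean over probe sets (-0.95) and without the lowess trend (-0.98), and Cd69 after quantile normalization (0.95). With the higher floor Cd69 (0.15), Csf1r (0.95) and, narrowly, S100a9 were under it, and Bbc3, Ngp and Pax5 had no ratio. No paired analysis was possible because each label has 1 array.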
